A study of Equus caballus with 24 samples.

Results

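The genes described mark the fat cells of bone marrow, 10 in all: FABP4, ADIPOQ, PLIN1, LPL, LIPE, PPARG, LEP, CIDEC, CEBPA and MLXIPL. They were looked up by gene symbol in both deposited tables, and 9 of the 10 were listed among 24232 genes with read counts. CEBPA, a transcription factor that drives fat cell differentiation, was not listed under its symbol and has no values here. The samples were the pituitary and the epiphysis, the end of a long bone, of female horses of 2 breeds, the small Debao pony (DP) and the taller Mongolian horse (MH), at a juvenile and an adult stage. The labels give the stage but no age, and no animal carried a treatment or a modified gene. Each of the 8 groups had 3 libraries: DPLBJ and MHLBJ (juvenile long bone), DPLBA and MHLBA (adult long bone), DPPJ and MHPJ (juvenile pituitary), and DPPA and MHPA (adult pituitary). The study asked which genes differ between the breeds, with GHR, the receptor for growth hormone, as a central gene, so GHR is given beside the fat cell genes library by library.

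Fat cells of the marrow arise from the same stromal precursors as bone-forming cells, and they fill the marrow space as the skeleton matures and red marrow turns to yellow marrow. PPARG and CEBPA switch on the fat cell programme, and MLXIPL (also called ChREBP) turns on lipid synthesis genes in response to glucose. LPL frees fatty acids from circulating lipoproteins, FABP4 carries fatty acids inside the cell, PLIN1 and CIDEC coat and enlarge the lipid droplet, and LIPE (hormone-sensitive lipase) releases fatty acids from it. ADIPOQ (adiponectin) and LEP (leptin) are hormones that fat cells secrete. Several of these genes are not exclusive to fat cells: macrophages and the endothelium can express FABP4, macrophages LPL and PPARG, and muscle LPL and LIPE. In bulk tissue, fewer fat cells and less RNA of these genes per fat cell cannot be told apart.

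Each long bone library held between 11616518 and 27007342 reads counted on genes, and each pituitary library between 11433209 and 23573036. A single long bone library, MHLBA replicate 1, stood apart from the other 11. A group of 11 pancreas genes, chosen after their values were seen and led by the lipase PNLIP, took 19.6% of its reads against at most 0.00225% in each other long bone library. Bone genes were present in the same library, with a summed level of 7565 CPM (a gene's share of the library's reads, scaled with TMM factors) for 9 osteoblast genes against 4267 to 33355 CPM in the other 11. It also had the lowest CPM of 4 of the 9 fat cell genes among the 12 long bone libraries (FABP4, ADIPOQ, LPL and PLIN1). The main breed, stage and GHR results of the 9 genes in long bone are therefore given with and without it. The tissue comparison and the adult counts of osteoblast, osteoclast, stroma, B cell, macrophage and pituitary hormone genes are given only with it. In the pituitary, MHPJ replicate 2 stood apart in the same genes, with 1582 reads of LPL and 427 of FABP4.

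Hormone genes of the anterior pituitary were low in 5 of the 12 pituitary libraries, and the labels do not name the lobe. The summed level of the 5 listed hormone genes (GH, PRL, POMC, TSHB and FSHB) was 0.139 to 7.73 CPM in the 3 MHPJ libraries, 1.04 in MHPA replicate 1 and 15.8 in DPPA replicate 1, against 11810 to 36576 CPM in the other 7. In MHPJ replicates 1 and 3, 4 of the 5 hormone genes had no read. The same 5 libraries had the highest sums of 7 stroma genes (184 to 323 CPM against 67.9 to 123) and of 10 chondrocyte genes (306 to 428 against 42.7 to 93.1), and the 8 muscle genes reached 1803 CPM in MHPJ replicate 2 and at most 44.4 in any other pituitary library. No juvenile MH library was free of this, so in every comparison with the MHPJ libraries breed or stage and the low level of hormone transcripts cannot be told apart.

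In the long bone, the order of the genes by median RPKM (the authors' scale, which corrects for gene length and library size) over the 12 libraries ran from FABP4 at 5057 through ADIPOQ at 297, LPL at 153.5, CIDEC at 123, PLIN1 at 81.7, PPARG at 68.3, LIPE at 42.2 and MLXIPL at 16.6 to LEP at 1.63. The ranges of all neighbours in this order overlapped over the 12 libraries. At the top, FABP4 lay between 612 and 8057 RPKM and ADIPOQ between 34.03 and 787, with FABP4 above ADIPOQ in each library. These ranges met only through MHLBA replicate 1, the lowest library for both genes. Without it, the lowest FABP4 was 1554 RPKM (DPLBJ replicate 3) and the lowest ADIPOQ 122 RPKM (DPLBA replicate 2). The highest library was 5.62 times the lowest for PPARG, 20.5 times for LIPE and 23.1 times for ADIPOQ. For PPARG and ADIPOQ that lowest library was MHLBA replicate 1, and the next lowest PPARG was 36.6 RPKM (DPLBJ replicate 3). GHR lay between 20.7 and 136 RPKM with a median of 78.5.

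**Figure D1:**
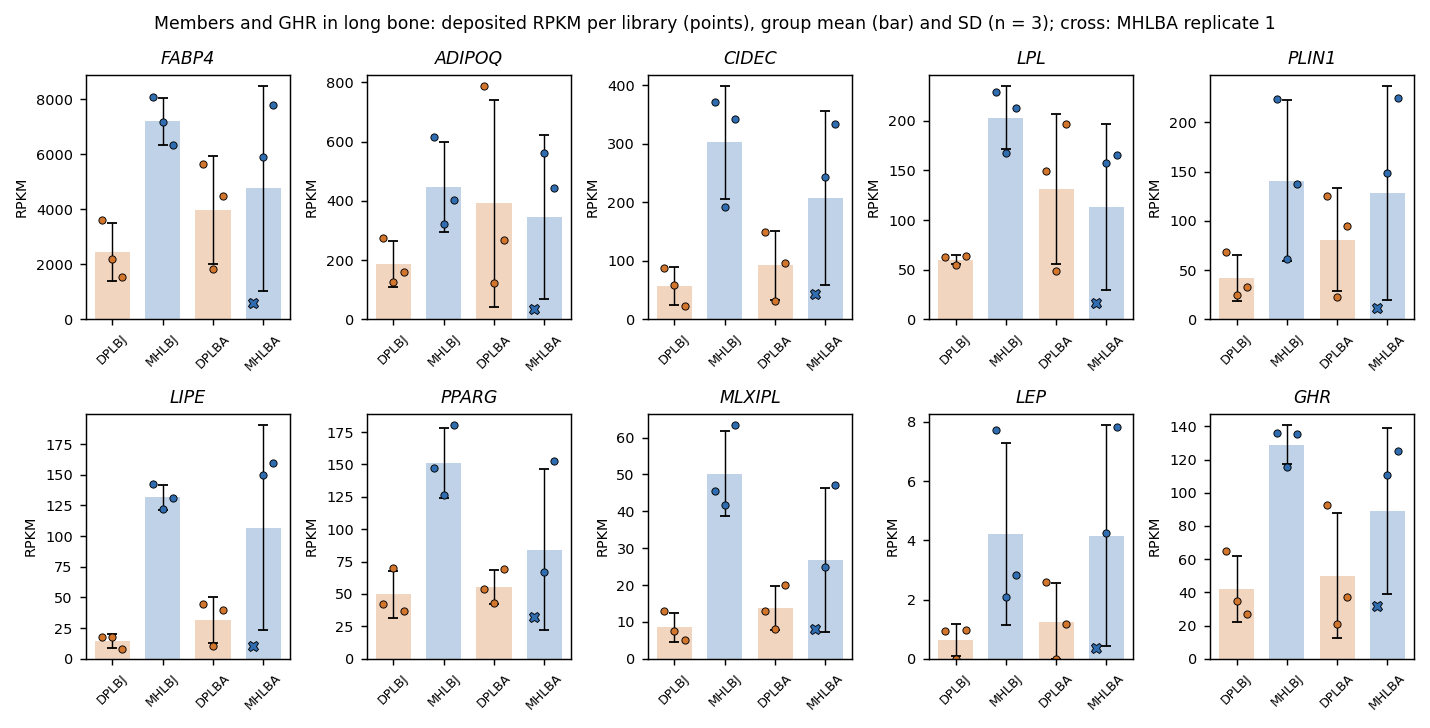
RPKM (vertical axes, linear and starting at 0) of the 9 listed fat cell genes and GHR in the 4 long bone groups of 3 libraries. Points are libraries, bars group means and lines the SD (cut at 0), and the cross marks MHLBA replicate 1; the DPLBJ points lie below the MHLBJ points in every panel except PLIN1, while the DPLBA and MHLBA points overlap in every panel.

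In juveniles, all 9 listed genes were lower in the long bone of DPs than of MHs. All of them were differentially expressed genes (DEGs, edgeR: P below 0.05 before adjustment, with more than a 2-fold change), where 5.47% of the 13755 tested genes were DEGs lower in DPs and 8.33% higher. For most of the 9 genes this direction was already known from these data, so the count is not independent evidence. Their median log2 fold change (DP against MH) was -1.60, against 0.05 for all tested genes. After Benjamini-Hochberg adjustment over all tested genes, no gene of the 13755 passed 0.05 in this comparison, although 2450 had an unadjusted P under 0.05, and the adjusted p of the 9 genes in edgeR lay between 0.136 and 0.271. With 3 libraries against 3, an exact permutation test of a single gene cannot go below 0.1.

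The lipase LIPE showed the largest fold change. Its RPKM was 18.1, 17.8 and 7.79 in DPLBJ and 142, 122 and 131 in MHLBJ. All 3 DP libraries were far below all 3 MH libraries, and the log2 fold change was -2.99 ± 0.43 (SE, edgeR, adjusted p = 0.136). CIDEC, the droplet protein, was at 88.4, 58.1 and 23.1 RPKM in DPLBJ and at 371, 192 and 343 in MHLBJ, again without overlap (log2 fold change -2.22 ± 0.55). PLIN1, the other droplet coat protein, had 68.9, 24.3 and 32.6 RPKM in DPLBJ and 224, 60.96 and 137 in MHLBJ. Its groups overlapped, because DPLBJ replicate 1 was above MHLBJ replicate 2, and its log2 fold change was -1.59 ± 0.57.

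The transcription factors fell as well. MLXIPL was at 12.9, 7.54 and 5.21 RPKM in DPLBJ and at 45.5, 41.6 and 63.3 in MHLBJ, a log2 fold change of -2.37 ± 0.41. PPARG was at 42.0, 70.2 and 36.6 RPKM in DPLBJ against 147, 126 and 180.0 in MHLBJ, a log2 fold change of -1.42 ± 0.36. For both genes the highest DP library stayed below the lowest MH library.

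Of the genes of fatty acid supply, LPL was the most even within groups, with 62.8, 54.6 and 63.4 RPKM in DPLBJ and 229, 168 and 213 in MHLBJ. Its log2 fold change was -1.60 ± 0.24. FABP4, the most abundant of the 9, had 3614, 2201 and 1554 RPKM in DPLBJ and 8057, 7179 and 6348 in MHLBJ. It fell by 1.38 on the log2 scale (SE 0.43). Neither gene overlapped between the breeds. The hormone ADIPOQ was at 274, 127 and 159 RPKM in DPLBJ and at 614, 321 and 404 in MHLBJ, and it had the smallest log2 fold change of the 9, at -1.11 ± 0.40. LEP, the other hormone, was scarce, with 10, 0 and 13 reads in DPLBJ and 76, 35 and 43 in MHLBJ (log2 fold change -2.60 ± 1.07). Its count of 0 allows up to 3 reads in that library, counting error only.

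All but PLIN1, 8 of the 9 genes, were lower in juvenile DPs without overlap, against 12% of all tested genes. The call of ADIPOQ was lost without DPLBJ replicate 2, DPLBJ replicate 3 or MHLBJ replicate 1 (log2 fold change -0.93, -0.94 and -0.80), and that of PLIN1 without the same libraries (-1.34, -1.38 and -1.07). The call of LEP was lost without DPLBJ replicate 3 or any MHLBJ library, where its log2 fold change was -2.95, -1.83, -2.94 and -2.84. Only 5 of the 9 genes were called when all 12 long bone libraries shared 1 estimate of the spread. Without TMM scaling, 57.5% of the DEGs over all genes were lower in DPs instead of 39.7%, the median of all genes moved from 0.05 to -0.17 on the log2 scale, and 9 of the 9 genes were still called. The share of all genes called in these alternative fits is not given here. The counts of these alternative fits therefore do not by themselves show a change particular to the 9 genes.

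In adults, none of the 9 genes was a DEG between the breeds, where 8.03% of 14073 tested genes were DEGs lower in DPs and 10.3% higher. LIPE had 44.3, 10.3 and 40.1 RPKM in DPLBA and 10.6, 150.1 and 160 in MHLBA, with the first MH value from MHLBA replicate 1, and its log2 fold change was -1.66 ± 0.80 (edgeR, adjusted p = 0.247, unadjusted P = 0.0705). FABP4 was at 5639, 1821 and 4475 RPKM in DPLBA and at 612, 5882 and 7774 in MHLBA. ADIPOQ was at 787, 122 and 268 RPKM in DPLBA and at 34.03, 561 and 442 in MHLBA. In all 3 genes the breeds overlapped, and MHLBA replicate 1 lay below or close to the lowest DP library. The log2 fold changes of the 9 genes ran from -1.66 (LIPE) to 0.30 (LPL), with a median of -0.57 against -0.03 for all tested genes. The median of the 9 moved with single MH libraries, to -1.07 without MHLBA replicate 1 and to -0.019 without MHLBA replicate 3.

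When MHLBA replicate 1 was left out, the log2 fold changes of all 9 genes were negative in adults. Then 3 genes were DEGs lower in DPs, against 6.68% of 14505 genes (10.8% higher). These were LIPE at -2.16 ± 0.53 (edgeR, adjusted p = 0.061), CIDEC at -1.501 ± 0.52 and MLXIPL at -1.22 ± 0.40. CIDEC had 149, 31.8 and 96.1 RPKM in DPLBA and 243 and 334 in the remaining MHLBA libraries. MLXIPL had 13.0, 8.15 and 20.1 RPKM in DPLBA against 24.9 and 47.1. The remaining 6 genes were at log2 fold changes from -2.14 (LEP) to -0.15 (LPL) and did not pass the threshold. Without this library, 6 of the 9 genes were lower in DPs without overlap, against 21.4% of all tested genes.

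**Figure D2:**
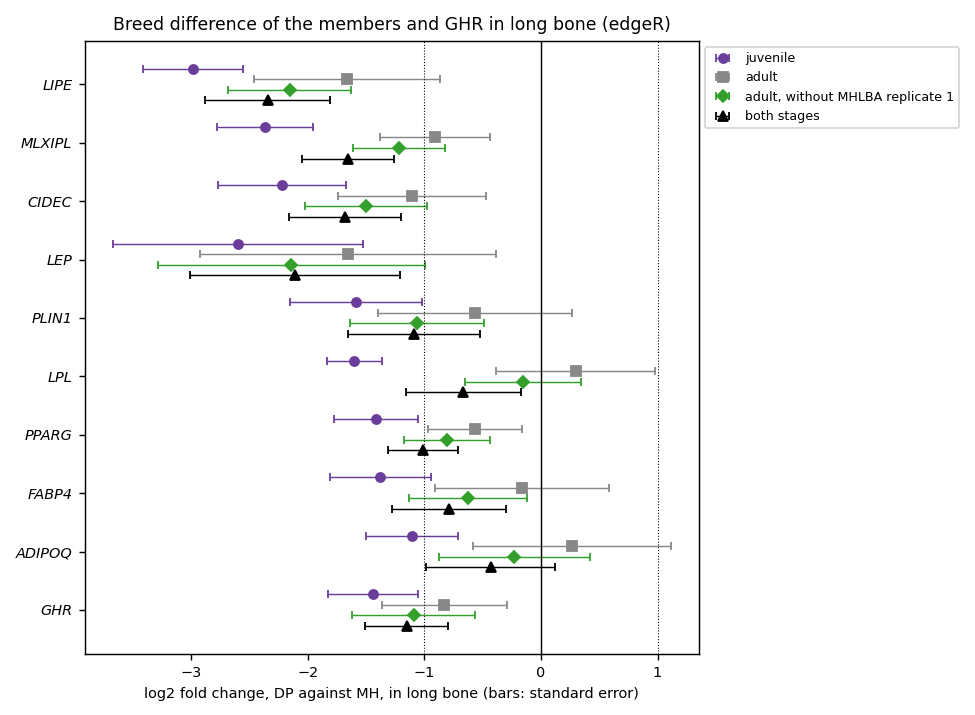
Log2 fold change (horizontal axis, DP against MH; lines are standard errors) of the 9 fat cell genes and GHR in juvenile long bone, adult long bone, adult long bone without MHLBA replicate 1 and both stages together; dotted lines mark a fold change of 2. The juvenile values run from -2.99 to -1.11 and the adult values from -1.66 to 0.30.

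Over both stages together, with stage as a term in the model of 12 libraries, 5 of the 9 genes were DEGs lower in DPs, against 6.93% of 13757 genes. Of these, 4 had an adjusted p under 0.05 (edgeR), namely LIPE at a log2 fold change of -2.35 ± 0.54 (adjusted p = 0.0147), MLXIPL at -1.66 ± 0.40 (0.0178), CIDEC at -1.68 ± 0.48 (0.0318) and PPARG at -1.01 ± 0.30 (0.0363). Over all tested genes, 4.53% passed both criteria with lower levels in DPs. LEP was at -2.11 ± 0.90 with an adjusted p of 0.122. FABP4, ADIPOQ, PLIN1 and LPL were at -0.79, -0.43, -1.09 and -0.67 and did not pass. After MHLBA replicate 1 was left out, 7 of the 9 genes were DEGs, against 6.57% of 13934 genes, with FABP4 at -1.07 ± 0.33 (adjusted p = 0.0487) and PLIN1 at -1.37 ± 0.44 (0.0529) added. PLIN1 was also a DEG without DPLBA replicate 1 (-1.34). Only 3 genes were called without any 1 of DPLBJ replicate 3, MHLBA replicate 3 and MHLBJ replicate 1. The share of all genes called in these fits is not given here. PPARG lay close to the 2-fold threshold, and its call ended, at log2 fold changes between -0.99 and -0.85, without any 1 of DPLBA replicate 2, DPLBJ replicates 1 and 3, MHLBA replicate 3 and MHLBJ replicates 1 and 3. The call of LEP ended, between -2.18 and -1.74, without any 1 of DPLBA replicate 3, DPLBJ replicates 2 and 3, MHLBA replicates 2 and 3 and MHLBJ replicate 1.

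In the test of the interaction, LPL and MLXIPL were called before adjustment, and no gene passed after it. The DP against MH difference was lower in juveniles than in adults by a log2 value of -1.94 ± 0.80 for LPL (unadjusted P = 0.0324) and -1.51 ± 0.65 for MLXIPL (unadjusted P = 0.0394), with an adjusted p of 0.971 for both (edgeR). Over all 14735 genes, 1.63% were called in this direction and none had an adjusted p under 0.05, while 660 had an unadjusted P under 0.05. LPL had 149, 48.3 and 196 RPKM in DPLBA and 16.5, 158 and 165 in MHLBA, so that the adult breeds overlapped where the juvenile ones did not. LPL was also called without MHLBA replicate 1 (-1.43 ± 0.58), where 1.26% of genes were called in this direction, and MLXIPL was not (-1.13 ± 0.62). Both calls were lost without any 1 of DPLBA replicates 1 and 3, DPLBJ replicates 2 and 3 and MHLBJ replicates 1 and 3 (LPL -1.92 to -1.54, MLXIPL -1.57 to -1.16), and that of MLXIPL also without MHLBA replicate 2 (-1.44).

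Between the stages of a breed, no fat cell gene was a DEG in the long bone. In MHs the juvenile against adult log2 fold changes ran from 0.07 (LEP) to 0.88 (MLXIPL), where 0.763% of 13899 genes were DEGs higher in juveniles. They ran from -0.45 (LEP) to 0.55 (MLXIPL) without MHLBA replicate 1, again with 0 called against 1.13% of genes higher. Leaving out MHLBA replicate 3 gave 2 calls, PPARG (1.33 ± 0.26) and MLXIPL (1.39 ± 0.35), both higher in juveniles, where 5.42% of 14366 genes were DEGs in either direction. In DPs they ran from -1.06 (LPL) to -0.09 (PPARG), where 1.56% of 13866 genes were DEGs lower in juveniles. Without DPLBA replicate 2, the adult DP library with the lowest mean level of the fat cell genes, ADIPOQ, PLIN1, LPL and LIPE were DEGs lower in juveniles, where 4.07% of 14063 genes were DEGs in either direction. Without DPLBJ replicate 1, PLIN1 and MLXIPL were lower, where 9.26% of 14280 genes were DEGs.

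GHR followed the fat cell genes across the long bone libraries. Its RPKM was 64.7, 34.6 and 27.0 in DPLBJ, 136, 115 and 135 in MHLBJ, 92.3, 20.7 and 37.2 in DPLBA and 32.1, 110.4 and 125 in MHLBA. The 5 MH libraries other than MHLBA replicate 1 were the highest for GHR and DPLBA replicate 2 was the lowest. MHLBA replicate 1 was the lowest MH library for GHR as for each of the 9 genes. The log2 fold change of GHR was -1.44 ± 0.38 in juveniles (edgeR, adjusted p = 0.154), -0.83 ± 0.54 in adults and -1.15 ± 0.35 over both stages (adjusted p = 0.0426). Leaving out MHLBA replicate 1 gave -1.09 ± 0.52 in adults and -1.30 ± 0.34 over both stages. GHR was a DEG in adults without DPLBA replicate 1 (-1.55), and over both stages it was no longer one without DPLBJ replicate 3 (-0.99).

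By GHR, only MHLBA replicate 1 of the MH libraries lay among the DP libraries. The other 5 MH libraries, at 264.5 to 336 CPM, lay above all 6 DP libraries, at 58.6 to 232 CPM. Pearson's r of log2 CPM between GHR and each of the 9 genes over the 12 long bone libraries lay between 0.653 (LPL) and 0.948 (CIDEC), against a median of 0.016 over 14734 genes. CIDEC had the second highest r of all these genes. All 9 genes had an unadjusted p under 0.05 in a two-sided permutation test with 100000 resamples, as did 11.8% of all genes with a positive r. In the same permutation test, only CIDEC had an adjusted p under 0.05 over the 14734 genes (p = 2e-05, adjusted p = 0.0295), where 0.366% of genes did so with a positive r. LIPE had r = 0.898 (permutation p = 0.00027, adjusted p = 0.0504), MLXIPL 0.852, LEP 0.820, FABP4 0.789, PLIN1 0.771, PPARG 0.721 and ADIPOQ 0.701. Spearman's rho lay between 0.727 (LPL; permutation p = 0.00971, adjusted p = 0.108) and 0.930 (CIDEC; permutation p = 2e-05, adjusted p = 0.0227).

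These correlations hold the difference between the breeds and that between libraries of a breed together. With the breed means removed, r lay between 0.443 (PPARG) and 0.890 (CIDEC), 8 of 9 genes had an unadjusted permutation p under 0.05, as did 4.34% of all genes with a positive r, and no gene had an adjusted p under 0.05. When MHLBA replicate 1 was also left out, r lay between 0.181 (PPARG) and 0.845 (CIDEC), and 3 of 9 genes, which were FABP4, ADIPOQ and CIDEC, had an unadjusted permutation p under 0.05, against 1.24% of all genes. The adjusted p was 1 for each of the 9. Within the 6 DP libraries, r was 0.881 for ADIPOQ (exact permutation p = 0.0139), 0.865 for CIDEC (exact permutation p = 0.0375) and 0.122 for PPARG, and the lowest adjusted p was 1. Within the 6 MH libraries, r lay between 0.810 and 0.997 with an adjusted p of 0.426 for each gene, and the 6 points were set by MHLBA replicate 1 against 5 libraries with close values of GHR. DPLBA replicate 2 and DPLBJ replicate 3 had the GHR levels most distant from the median. With both left out, r lay between 0.561 and 0.913, 7 of 9 genes had an unadjusted permutation p under 0.05, against 10.8% of all genes, and CIDEC had r = 0.913 (permutation p = 0.00028, adjusted p = 0.104). No gene of the 14734 had an adjusted p under 0.05 in these 10 libraries. The adjusted call of CIDEC was kept when either was left out alone (permutation test, adjusted p = 0.0442 and 0.0368), and it was lost without any 1 of DPLBJ replicate 1, MHLBA replicate 2 and the 3 MHLBJ libraries (r 0.941 to 0.953). Without MHLBA replicate 1, FABP4 (0.925), LIPE (0.905) and CIDEC (0.949) had an adjusted permutation p under 0.05, against 0.679% of all genes. On log2(RPKM + 1), 7 of the 9 genes did so, against 3.71% of all genes, and without TMM scaling 7 did so, against 6.41%.

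**Figure D3:**
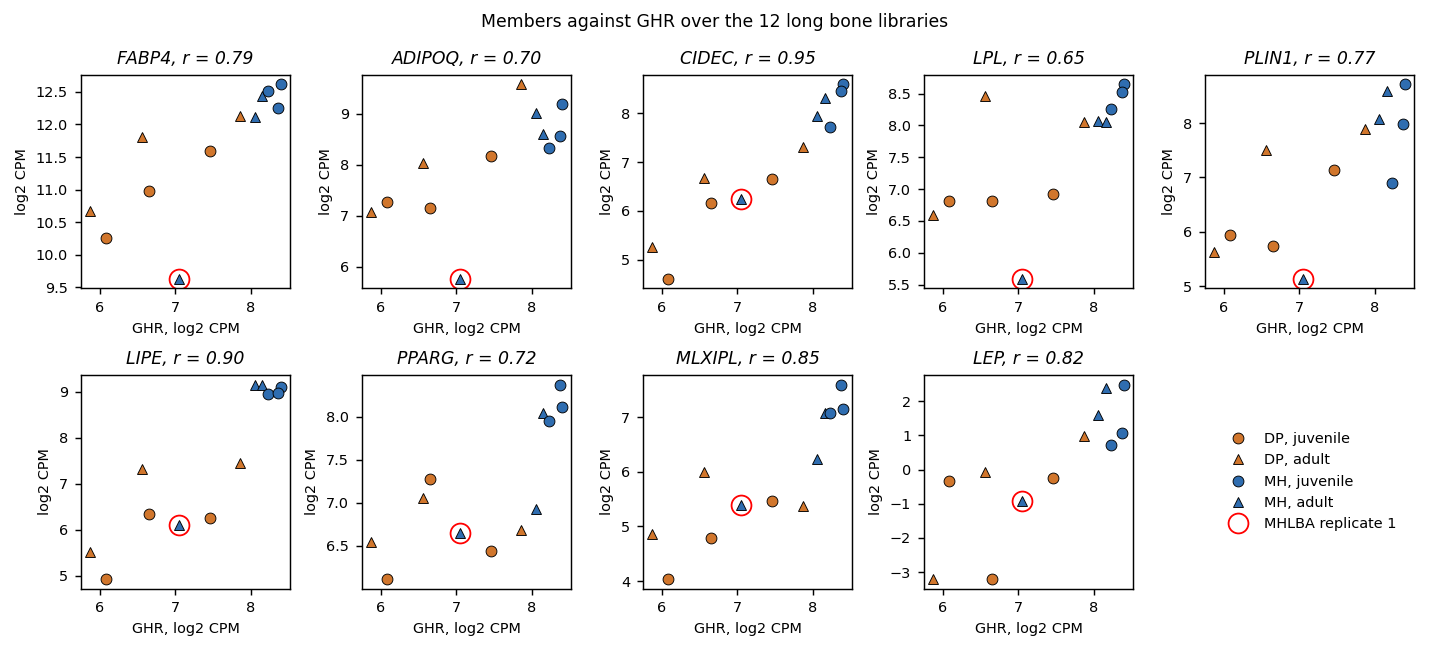
Log2 CPM of each of the 9 fat cell genes (vertical axes) against that of GHR (horizontal axes) in the 12 long bone libraries, with breed by colour, stage by shape and a red ring around MHLBA replicate 1. The ringed library lies below the other points at its GHR level for FABP4, ADIPOQ, LPL and PLIN1, and among them for CIDEC.

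The number of GHR reads was also set against that of single fat cell genes. For each 100 reads of FABP4 there were between 2.64 and 6.77 reads of GHR in 11 long bone libraries and 16.7 in MHLBA replicate 1. For each 100 reads of ADIPOQ there were between 30.3 and 92.9 in the 11 libraries and 243 in MHLBA replicate 1. For each 100 reads of LIPE there were 59.2 to 228 reads of GHR in DPs and 46.9 to 65.7 in MHs other than MHLBA replicate 1, which had 193. The ranges of the breeds met only in DPLBA replicate 3, the lowest DP library. No test was made of these ratios.

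The 9 genes moved together across the long bone libraries of both breeds. Within a breed the pairs of genes had a lower median r in DPs, and in MHs only without MHLBA replicate 1. Over the 12 libraries the 36 pairs of genes had r between 0.43 (ADIPOQ and PPARG) and 0.963 (LIPE and CIDEC) with a median of 0.803, as a description. Within the 6 DP libraries the median was 0.76 and the lowest r -0.324 (PPARG and LEP). Within the 6 MH libraries the median was 0.885 and the lowest r 0.594 (PPARG and LEP). Without MHLBA replicate 1, the median within the 5 remaining MH libraries was 0.386 and the lowest r -0.571 (LIPE and MLXIPL). Over both breeds without it, the median was 0.834. These values share library depth and scaling. LIPE was the gene closest to the mean of the other 8 (r = 0.944), followed by FABP4 (0.934) and CIDEC (0.933), and PPARG the farthest (0.747).

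The genes outside the list whose level was most like the mean standardised level of the 9 were AIFM2 (r = 0.964), an oxidoreductase that protects membranes from lipid peroxidation, CHRDL1 (0.957), a secreted inhibitor of bone morphogenetic proteins, RASSF4 (0.954), ALAS1 (0.954), the first enzyme of haem synthesis outside red cells, and TIMP4 (0.949), an inhibitor of metalloproteinases. They were followed by EMP2 (0.946), ADRBK2 (0.943), PLA2G16 (0.941), a phospholipase of fat tissue, ECHDC1 (0.940) and PTPN12 (0.935). GHR ranked 54 of 12991 genes with a symbol (r = 0.884). AIFM2 and ALAS1 were also among the first 10 without MHLBA replicate 1, and GHR then ranked 31 (r = 0.927). ZNF274 (0.969), LRRC16A (0.967) and NDRG2 (0.964) then led the list.

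The other genes of fat metabolism, from lists that left out the 9, held DEGs in both directions in juveniles. Of 15 genes of fatty acid and triglyceride synthesis, 6 were DEGs lower in DPs and 2 higher, with a median log2 fold change of -1.16. The fallen genes were led by SCD, which makes monounsaturated fatty acids (-2.53 ± 0.72), LPIN1, which makes diacylglycerol (-2.19 ± 0.57), ACACB, a carboxylase that makes malonyl-CoA (-2.02 ± 0.46), and THRSP, a regulator of lipid synthesis (-1.86 ± 0.57). Of 9 tested genes of the lipid droplet and lipolysis, 4 fell and 1 rose, with CIDEA, a relative of CIDEC, at -3.10 ± 0.53, G0S2, an inhibitor of triglyceride lipase, at -2.81 ± 0.43, PLIN3, a droplet coat protein of many cell types, at 1.73 ± 0.61 and MGLL, the lipase of monoacylglycerol, at -1.65 ± 0.44. Their adjusted p in edgeR lay above 0.05, as for every gene in this comparison.

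Of 9 further transcription factors and co-regulators, KLF15 (-2.21 ± 0.40) and EBF1 (-1.37 ± 0.36) fell and 7 did not pass. Of 8 genes of fatty acid uptake, CAV1, the coat protein of caveolae (-1.96 ± 0.51), and GPIHBP1, which holds LPL on the capillary wall (-1.36 ± 0.28), fell. Of 10 genes of adipokines and hormone response, 3 fell, led by INSR, the insulin receptor (-2.03 ± 0.47), and SLC2A4, the insulin-responsive glucose transporter (-1.98 ± 0.46). RETN (7.91 ± 2.76) and RBP4 (1.41 ± 0.57) rose. RETN is resistin, which is also made by cells of the myeloid lineage in some species.

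In adults, a single transcription co-regulator, PPARGC1A, fell by 4.21 on the log2 scale (SE 1.26), and without MHLBA replicate 1 by 1.22 (SE 0.50). From the lipid droplet list, 3 genes fell, CIDEB (-2.90), CIDEA (-1.85) and AQP7, a glycerol channel (-1.58), and PLIN3 rose (1.12). Leaving out that library, 5 of 10 fell and PLIN3 again rose (1.35 ± 0.30), with CIDEA at -2.34 ± 0.31 (edgeR, adjusted p = 0.0107) and AQP7 at -1.95 ± 0.42 (adjusted p = 0.0416). Of the 15 synthesis genes only PCK1, which supplies glycerol phosphate, fell (-5.26 ± 1.48), and without this library 4 fell and 1 rose, with PCK1 at -5.83 ± 0.99 (edgeR, adjusted p = 0.0231). Of the 8 uptake genes, CAV1 (-1.56) and ANGPTL4, an inhibitor of LPL (-1.46), fell and FABP5, a relative of FABP4, rose (1.01), and without MHLBA replicate 1, 4 fell and none rose. Of 10 genes of adipokines and hormone response, LEPR, the leptin receptor, fell (-1.74) and RETN rose (6.30 ± 0.79; edgeR, adjusted p = 0.0223). Without that library LEPR was at -2.15 ± 0.32 (edgeR, adjusted p = 0.0155), RETN at 6.76 ± 0.77, and SLC2A4 also fell (-1.97 ± 0.46).

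Markers of other cell types differed between the breeds in the same long bone libraries. Muscle genes moved in the direction of the fat cell genes. In juveniles 6 of 7 tested muscle genes fell, led by MYH2, a myosin with 2 reads over the DPLBJ libraries and 53 to 1914 in each MHLBJ library, CKM, the muscle creatine kinase (-7.32 ± 1.82), MYL1 (-5.82 ± 1.93) and ACTA1 (-5.72 ± 1.86). In adults 3 of 5 fell, led by ACTA1 (-5.89 ± 1.91), and 4 of 6 without MHLBA replicate 1. The summed level of the 8 listed muscle genes was 5.94 to 12.3 CPM in DPLBJ, 8.07 to 13.0 in DPLBA, 23.97 to 528 in MHLBJ and 8.32 to 418 in MHLBA. MHLBJ replicate 3 had the lowest muscle sum of its group, 23.97 CPM, and 501 CPM of LIPE, against 552 in MHLBJ replicate 1, which had the highest muscle sum. Its muscle sum still lay above the highest of DPLBJ, 12.3 CPM. A gene with almost no reads in DPs, such as MYH2, passed the filter on low counts only through the MH libraries, so it had to differ. The counts of called muscle genes are therefore a description. The part of muscle RNA in the fat cell genes was not tested.

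Cartilage and blood-forming cells moved the other way. All 9 tested chondrocyte genes rose in juvenile DPs, led by COL9A2 (10.69 ± 2.39), COL2A1 (10.52 ± 2.42), COL9A1 (9.81 ± 2.90) and HAPLN1 (8.48 ± 1.86). Their summed level was 231 to 27520 CPM in DPLBJ, 33.8 to 177 in MHLBJ, 1446 to 27036 in DPLBA and 95.7 to 2274 in MHLBA, where the highest value was that of MHLBA replicate 1. Of 5 erythroid genes 4 rose, led by HBB (9.76 ± 2.98), ALAS2 (9.44 ± 2.64) and SLC4A1 (8.56 ± 2.29), as did 5 of 5 neutrophil genes, led by PRTN3 (7.17 ± 2.34), LTF (6.83 ± 2.69), S100A12 (6.75 ± 2.26) and MPO (6.02 ± 2.54). Of the 8 listed erythroid genes, only these 5 passed the filter on low counts in juveniles. A gene with almost no reads in MHs passed it only through the DP libraries, so it had to come out higher. The counts called in these lists are therefore a description. The summed level of the 8 listed erythroid genes was 19.2 to 6758 CPM in DPLBJ and 23.2 to 32.7 in MHLBJ. The lowest DPLBJ library thus lay below every MHLBJ library. The summed neutrophil level was 11.7 to 9667 CPM in DPLBJ and 6.79 to 104 in MHLBJ. DPLBJ replicate 1 had the neutrophil level of the MH libraries (11.7 CPM), and 231 CPM of chondrocyte genes. Its LIPE was at 76.9 CPM, below the 493.2 CPM of the lowest juvenile MH library, while PLIN1 was at 141.5 CPM, above MHLBJ replicate 2 (119), and ADIPOQ at 287.5 CPM, close to the same library (321). By CPM it was the highest DPLBJ library for FABP4, ADIPOQ, PLIN1, LPL, CIDEC, MLXIPL and GHR. It was also the highest for the scarce LEP, at 0.743 CPM against 0.691 CPM in DPLBJ replicate 3. In adults, 4 of 10 chondrocyte genes, led by MATN3 (5.06 ± 1.88), 5 of 5 neutrophil genes, led by PRTN3 (5.67 ± 1.44), and 0 of 2 erythroid genes rose. Without MHLBA replicate 1, these counts were 10 of 10 chondrocyte, 5 of 5 neutrophil and 0 of 4 erythroid genes.

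Among bone cells, 3 of 9 osteoblast genes rose in juvenile DPs, ALPL (2.64 ± 0.46), BGLAP (1.94 ± 0.79) and SP7 (1.94 ± 0.72), and 5 of 9 in adults, led by SP7 (2.85 ± 0.68). A single osteoclast gene of 7 rose at each stage, MMP9 in juveniles (1.43 ± 0.58) and OCSTAMP in adults (2.01 ± 0.84). A single gene of 7 of marrow stroma rose at each stage, LPAR1 (1.16 ± 0.44) and CXCL12 (1.06 ± 0.28). Of 6 B cell genes, CD79B rose in juveniles (2.91 ± 0.98) and 3 rose in adults, led by CD79A (3.80 ± 0.88). No pituitary hormone gene passed in juveniles, and PRL did so in adults (3.13 ± 1.34). No macrophage gene of 7 passed in juveniles, and 5 rose in adults, led by C1QB (2.58 ± 0.49; edgeR, adjusted p = 0.0425). Of 8 endothelial genes, CDH5 (-1.23 ± 0.37) and PECAM1 (-1.12 ± 0.31) fell and STAB2 rose (2.83 ± 0.61) in juveniles, while TIE1 fell (-1.62 ± 0.31) and STAB2 rose (1.53 ± 0.34) in adults. Without MHLBA replicate 1, 4 endothelial genes fell in adults, led by PECAM1 (-1.55 ± 0.42). The summed endothelial level was 809 to 1337 CPM in DPLBJ, 2059 to 2145 in MHLBJ, 1078 to 1484 in DPLBA and 977 to 2898 in MHLBA, with MHLBA replicate 1 the lowest of its group, so it moved with the fat cell genes. The part of these cell types in the levels of the fat cell genes was not tested.

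**Figure D4:**
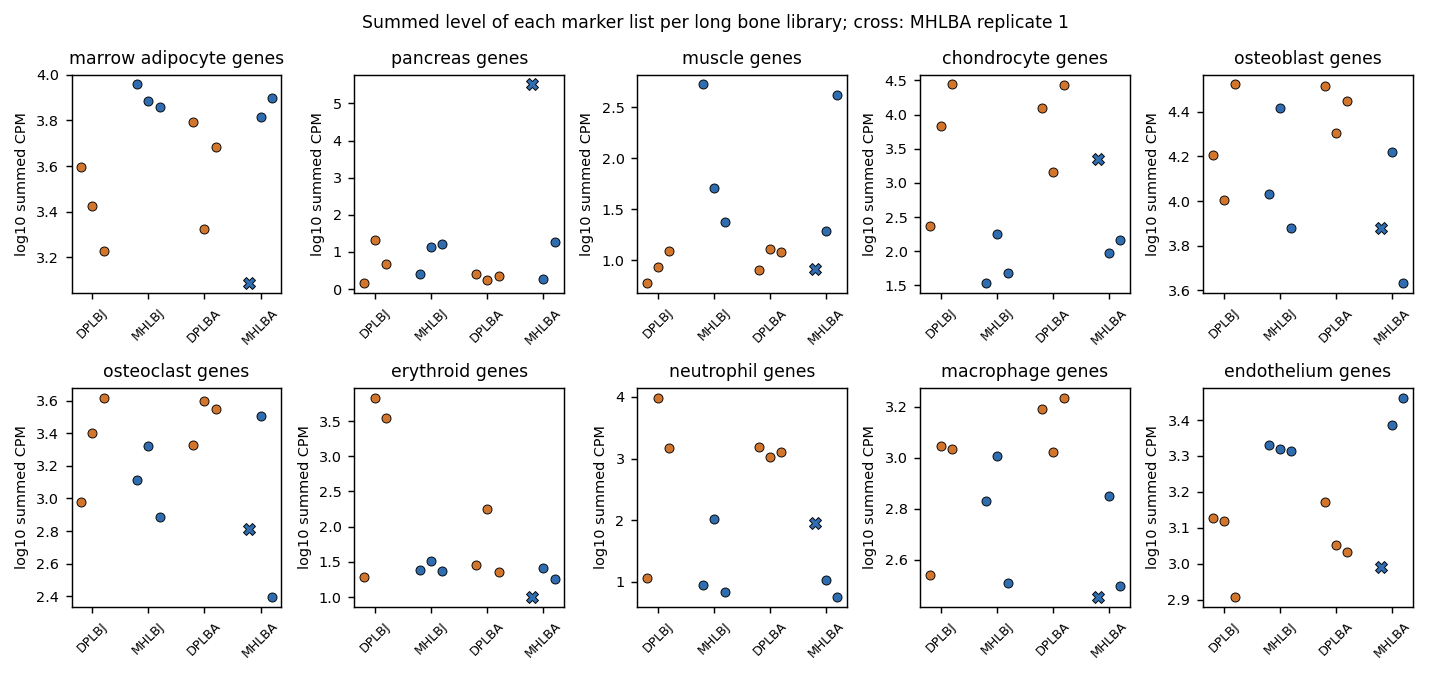
Summed CPM of the 9 fat cell genes, of the pancreas genes and of 8 cell type marker lists (vertical axes, log10 scale) in the 12 long bone libraries, grouped by breed and stage, with MHLBA replicate 1 as a cross. The pancreas sum is 324016 CPM in that library and at most 21.4 CPM in the others.

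In the pituitary, the genes most particular to fat cells were at or near 0. LEP had at most 1 read in any of the 12 pituitary libraries, CIDEC at most 8, PLIN1 at most 5 and ADIPOQ at most 6, and the number of libraries at 0 was 10 for LEP, 9 for CIDEC, 6 for PLIN1 and 5 for ADIPOQ. A count of 0 allows up to 3 reads, so these genes were not told apart from 0 in most of the libraries. In the long bone, the lowest library had 458 reads of CIDEC, 414 of PLIN1 and 641 of ADIPOQ. The other genes were present in both tissues, with a median RPKM in the pituitary of 8.05 for MLXIPL, 3.23 for LIPE, 1.96 for LPL, 1.67 for PPARG and 1.11 for FABP4. CIDEC, ADIPOQ and PLIN1 passed the filter on low counts only through the long bone, so they had to differ and are given by their reads alone. The 5 genes read in both tissues were DEGs higher in the long bone, where 16.9% of 14176 genes were DEGs in this direction. The log2 fold change was 10.39 ± 0.88 for FABP4, 5.501 ± 0.33 for PPARG, 5.15 ± 0.52 for LPL, 3.60 ± 0.43 for LIPE and 1.65 ± 0.30 for MLXIPL, and the highest adjusted p of the 5 was 1.11e-04 (edgeR). LPL, LIPE and MLXIPL overlapped between the tissues. By the study's methods, both tissues came from the same horses, but the labels do not tie the libraries of a horse together. The fit therefore treated all libraries as independent. Without the 5 pituitary libraries low in hormone genes, FABP4, PPARG, LPL and LIPE were still DEGs (11.09, 6.21, 6.67 and 4.66), against 20.2% of 14802 genes, while MLXIPL was at 0.96 ± 0.29, under the 2-fold threshold (edgeR, adjusted p = 0.00915).

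**Figure D5:**
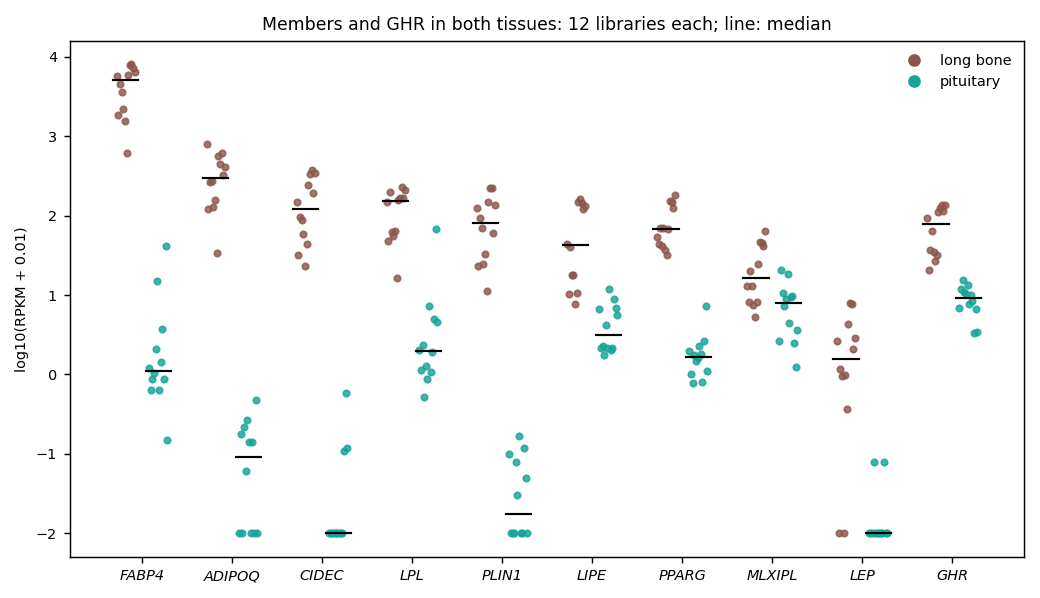
Log10(RPKM + 0.01) of the 9 fat cell genes and GHR in the 12 long bone and 12 pituitary libraries (points), with the median of each as a line; a value of -2 is 0 RPKM. LEP, CIDEC, PLIN1 and ADIPOQ lie near the bottom in the pituitary, and MLXIPL is the gene with the closest medians, 16.6 and 8.05 RPKM.

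LIPE, MLXIPL and GHR separated the 5 pituitary libraries low in hormone genes from the other 7. LIPE lay between 5.6 and 11.8 RPKM in the 5 and between 1.73 and 4.17 in the 7, MLXIPL between 1.23 and 4.46 against 7.26 to 20.5, and GHR between 3.36 and 7.75 against 8.45 to 15.5. LPL was at 2 to 67.8 RPKM in the 5 and at 0.51 to 2.37 in the 7. These ranges are a description with no test.

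Between the breeds in the juvenile pituitary, 3 of the 5 tested genes were DEGs, and the 5 hormone genes were all DEGs lower in MHs, each with an adjusted p under 0.05 (edgeR). LPL had 18, 48 and 36 reads in DPPJ and 165, 1582 and 147 in MHPJ, and it fell by 5.11 on the log2 scale (SE 1.35; edgeR, adjusted p = 0.0633). Without MHPJ replicate 2, which held most of these reads and the high muscle sum, the log2 fold change was -2.58 ± 0.40 (edgeR, adjusted p = 0.00416). LIPE fell (-1.59 ± 0.38) with 1.73, 4.17 and 2.15 RPKM in DPPJ and 8.96, 6.77 and 5.6 in MHPJ. MLXIPL rose (2.02 ± 0.52), with 7.26, 8.83 and 18.3 RPKM in DPPJ and 2.51, 1.23 and 3.61 in MHPJ. The background was 12.7% of 14603 genes lower and 7.60% higher in DPs, and without MHPJ replicate 2 it was 17.1% and 12.8%. FABP4 was then also a DEG, higher in DPs (3.42 ± 1.40), on 16, 35 and 280 reads in DPPJ and 13 and 2 in the remaining MHPJ libraries. All 3 MHPJ libraries were low in hormone genes and high in stroma and chondrocyte genes, and the part of tissue make-up in these differences was not tested.

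No fat cell gene was a DEG between the breeds in the adult pituitary, where 1.18% of 14376 genes were DEGs lower in DPs and 1.75% higher. Each group held 1 library low in hormone genes. Without DPPA replicate 1 alone, MLXIPL was called higher in DPs (1.15 ± 0.41), where 3.24% of 14424 genes were DEGs in either direction. Without MHPA replicate 1 as well, MLXIPL was at 0.92 ± 0.34, under the 2-fold threshold, and FABP4 was a DEG lower in DPs (-1.62 ± 0.67; edgeR, adjusted p = 0.22) on 12 and 14 reads against 18 and 45, where 6.02% of 14394 genes were DEGs.

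Between the stages, MLXIPL was lower in the juvenile than in the adult MH pituitary (log2 fold change -1.44 ± 0.46, edgeR, adjusted p = 0.391), where 3.24% of 14430 genes were DEGs in this direction. The libraries low in hormone genes were all 3 juvenile ones and MHPA replicate 1, whose MLXIPL (4.46 RPKM) was the lowest of the adult MH libraries. Without MHPA replicate 1, LPL (4.46 ± 1.70) and LIPE (2.07 ± 0.27) were DEGs higher in juveniles and MLXIPL lower (-1.66 ± 0.48), where 15.5% of 14897 genes were DEGs in either direction. No gene was called without MHPA replicate 2, MHPA replicate 3 or MHPJ replicate 1. The part of tissue make-up in these differences was not tested.

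In the DP pituitary LPL was lower in juveniles (-1.17 ± 0.46) and FABP4 higher (2.61 ± 1.03), with 280 of the FABP4 reads in DPPJ replicate 3 and at most 35 in each other DP pituitary library. There 2.64% of 14533 genes were DEGs lower and 0.929% higher in juveniles. Without DPPA replicate 1, the DP library low in hormone genes, FABP4 was still called (2.95 ± 1.19) and LPL was not (-1.03 ± 0.51), where 2.96% of 14713 genes were DEGs in either direction. Leaving out DPPA replicate 3 or DPPJ replicate 3 ended both calls, and leaving out DPPA replicate 2 or DPPJ replicate 1 left 1.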

How the data were processed

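RNA-seq was made from ribosome-depleted, directional libraries. The authors deposited whole read counts of 24232 genes without normalization, and the RPKM of 24248 genes, scaled by gene length and library size. Per the labels, the tools were bcl2fastq, TopHat2 and edgeR. The study's methods give trimming, EquCab 3.0 and Salmon, and the counting program is not given in the sources used here. In DPLBA replicate 2, 373 of 12054 genes had an RPKM more than 2% from the value of their reads, but no fat cell gene and not GHR.

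Groups came from the sample titles. Counts were tested in edgeR 4.0.16 (R 4.3.3; TMM, filterByExpr with a minimum count of 10, quasi-likelihood test). The study's threshold was kept for DEGs (P below 0.05 before adjustment, more than a 2-fold change). Adjusted p-values are Benjamini-Hochberg over all tested genes. Log2 CPM used a prior count of 2. The labels do not say that the libraries of a group are separate animals, which the study's methods do. Alternatives used DESeq2 1.42.0 and limma 3.58.1 on log2(RPKM + 1) and log2(RPKM + 0.1) with a mean RPKM of at least 0.1. The test was checked on simulated counts. The genes and lists were chosen with earlier results of these data known.

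The 9 genes and GHR were always named, with at most the 4 DEGs of largest fold change of each other list and the 10 genes most like their mean. The pancreas genes were chosen after their values were seen. The labels give the same replicate numbers to all groups. Same-numbered libraries deviated together in the adult pituitary of DPs and MHs (r = 0.642, 0.531 and 0.35), and the replicate block changed no call there. In each of these groups, replicate 1 was the library low in hormone genes. The part of this in the r values was not tested. No sequences or coordinates are given.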

Additional observations from a re-analysis of the deposited data

Results flagged for a closer look

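In MHLBA replicate 1, 5 values lay farther below the other 5 MH long bone libraries than a Dixon test at the 95% level allows for 6 samples. They were its log2 CPM of FABP4 (9.63 against 12.12 for the next library; gap over range 0.832), ADIPOQ (5.77 against 8.33; 0.745), LPL (5.59 against 8.05; 0.806), LIPE (6.10 against 8.95; 0.932) and GHR (7.05 against 8.05; 0.742). Chance gives about 1 such value in 20, and 20 were tested, 10 in each breed; the 5 come from 1 library and are not independent. The same library took 19.6% of its reads from pancreas genes.

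In the test of the interaction of breed and stage in long bone, LPL was at -1.94 and MLXIPL at -1.51 on the log2 scale. The adjusted p was 0.971 for both (edgeR), so a change of the breed difference with stage was not shown. Without MHLBA replicate 1 the values were -1.43 and -1.13.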

How the results depend on the processing

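The juvenile result kept its direction under every alternative run, with 6 to 9 of the 9 genes called when 1 library was left out. In juvenile long bone, 5 genes were called with all 12 libraries in 1 fit and 0 with an adjusted p under 0.05. In adult long bone, 1 was called with DESeq2, with all 12 libraries in 1 fit and with the edgeR exact test, instead of 0, and 0 to 3 when 1 library was left out. There FABP4 turned to 0.24 with limma on either scale and 0.016 with the replicate block, and over the fits without 1 library FABP4 ran from -0.63 to 0.30, ADIPOQ from -0.67 to 0.82, PLIN1 from -1.07 to 0.0356 and LPL from -0.15 to 0.69. Over both stages, 3 to 7 were called. In the interaction, 2 became 0 with an adjusted p under 0.05 or without TMM and 1 with limma on either scale or the replicate block, and 0 to 3 without 1 library. There LEP ran from -1.70 to 0.10 and GHR from -1.12 to 0.0809. Between stages in long bone, MHs gave 1 instead of 0 with the replicate block and 0 to 2 without 1 library, and DPs gave 1 instead of 0 without TMM, without a filter on low counts, with DESeq2 or with the exact test, and 0 to 4 without 1 library. In the juvenile pituitary, 3 became 0 with an adjusted p under 0.05, and 3 to 4 were called without 1 library. In the adult pituitary 0 to 1 were called without 1 library, and 1 instead of 0 without DPPA replicate 1 and MHPA replicate 1, which were low in hormone genes (added after seeing the data). The MH pituitary stages gave 0 instead of 1 with an adjusted p under 0.05, 2 without a filter, with limma on log2(RPKM + 0.1) or the exact test, and 0 to 3 without 1 library. The DP pituitary stages gave 0 instead of 2 with an adjusted p under 0.05, limma on either scale, the replicate block or all 12 libraries in 1 fit, 1 without TMM, and 0 to 2 without 1 library. Between the tissues, MLXIPL was no longer a DEG without the 5 pituitary libraries low in hormone genes (also added after seeing the data). For GHR, 7 instead of 1 gene had an adjusted p under 0.05 on log2(RPKM + 1) or without TMM, 0 without the 2 farthest libraries, with breed means removed (with or without MHLBA replicate 1, the latter added after seeing the data), within DPs or within MHs, and 0 to 3 without 1 library. These counts stand without the share of all genes called in each setting, so they do not show a change particular to the 9 genes. The cause of these changes was not tested.

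Replicate numbers are shared by all groups. In the juvenile long bone, same-numbered libraries of the breeds deviated with r = 0.181, 0.091 and -0.141, so the numbers were not taken to pair them there, and the block left 9 genes called. The number of reads limits LEP and, in the pituitary, LEP, CIDEC, PLIN1 and ADIPOQ.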
